A study of Mus musculus with 8 samples.

Results

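Collagens, laminins and integrins make and read the extracellular matrix, and their genes were followed here in mouse embryonic stem (ES) cells with less or more Zscan4. The members were all protein-coding genes of the 2 deposited gene tables whose symbol names a collagen chain, a laminin chain or an integrin, together with Nid1, Nid2, Fn1, Sparc and Fbn1. Of 91 such genes in the annotation, 71 were in either table, with 67 among the 17938 genes of the knockdown table, 68 among the 18292 genes of the overexpression table and 64 in both. The symbol pattern also takes in Itgb1bp1, Itgb1bp2 and Itgb3bp, which are not integrin subunits. By role, the members in the knockdown and overexpression tables were 17 and 16 basement membrane genes, 12 and 11 genes of fibrillar matrix, 21 and 24 integrin genes, and 17 and 17 other collagens. The other 20 annotated members were in neither table, among them Col4a3, Col4a4, Col4a6, Lamc3, Col15a1, Itga2, Itgb6 and Itgb8.

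RNA was sequenced from J1 cells, a line of mouse ES cells, in 8 libraries that formed 4 groups of 2. KD Zscan4 cells expressed a short hairpin RNA against Zscan4 from the pSuper puro vector, and KD control cells a random control. OE Zscan4 cells carried the coding sequence of Zscan4c in pCMV-tag2, a plasmid named for the cytomegalovirus promoter, and OE control cells were the matching control. Per the labels, all cells were transfected with 1000 ng of plasmid on gelatin in medium with 15% serum and 10 ng/ml LIF, drug was added after 24 h (for the knockdown, 7 days of puromycin at 2 µg/ml; for the overexpression, 10 days of G418 at 500 µg/ml), and clones from single cells were then picked. The labels do not say whether the 2 libraries of a group came from separate clones or cultures, so p-values measure the spread between these libraries alone, which may be technical. The libraries held 17.39 to 22.38 M reads in genes. Zscan4c, the targeted gene, had 11.2 and 15.5 normalised reads in the KD Zscan4 libraries, against 575 and 566 in the KD control libraries, and 1074 and 981 in the OE Zscan4 libraries, against 60.1 and 75.2 in the OE control libraries.

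Basement membranes are thin sheets of matrix under epithelia. Laminins, each made of an alpha, a beta and a gamma chain, assemble on the cell surface, collagen IV forms a second network, and nidogens and perlecan join the networks. Fibrillar collagens and fibronectin build the looser interstitial matrix, and integrins, pairs of an alpha and a beta subunit, bind both kinds of matrix at the cell surface. In the early mouse embryo, laminin and collagen IV are made in large amounts by the primitive endoderm, the layer that forms beside the pluripotent cells.

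Values below are normalised reads, meaning the reads of a gene divided by 1 scaling factor per library, as the authors deposited them. A fold change is a difference of means of log2(value + 1), the Zscan4 group minus its own control, given with its standard error (SE). On that scale the change of genes with few reads is understated. A gene was called changed at a false discovery rate of 0.05 by limma-trend, 2 libraries against 2, with Benjamini-Hochberg adjustment over all genes of the table, and every adjusted p below is from that test. In each arm 1 of the autosomes stood apart as a whole. In the knockdown the median fold change of expressed protein-coding genes was 0.56 on chromosome 1, against -0.07 to 0.02 on other autosomes and X. In the overexpression it was -0.34 on chromosome 11, against -0.07 to 0.09 on other autosomes and X. Chromosome Y, with 5 such genes and no member, had medians of -2.20 in the knockdown and -6.02 in the overexpression. Members on chromosomes 1 and 11 are given with the fold change left after the chromosome's median was taken off.

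In the knockdown, 35 of 67 members were called, 16 higher and 19 lower, where 35.7% of all genes of the table were called, 17.2% higher and 18.5% lower. Of protein-coding genes that averaged 20 or more normalised reads, 42.9% were called, 20.3% higher and 22.7% lower, and 34 of the 56 members at that level were called, 15 higher and 19 lower. The median fold change was 0.03 over the members and 0.01 over all genes. Of 17 basement membrane genes, 9 fell and 3 rose, and of 21 integrin genes, 8 fell and 4 rose. Of 12 fibrillar matrix genes, 2 rose and 1 fell, and of 17 other collagens, 7 rose and 1 fell. With DESeq2 on the recovered reads, 23 of the 67 members were called, 8 higher and 15 lower.

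**Figure D1:**
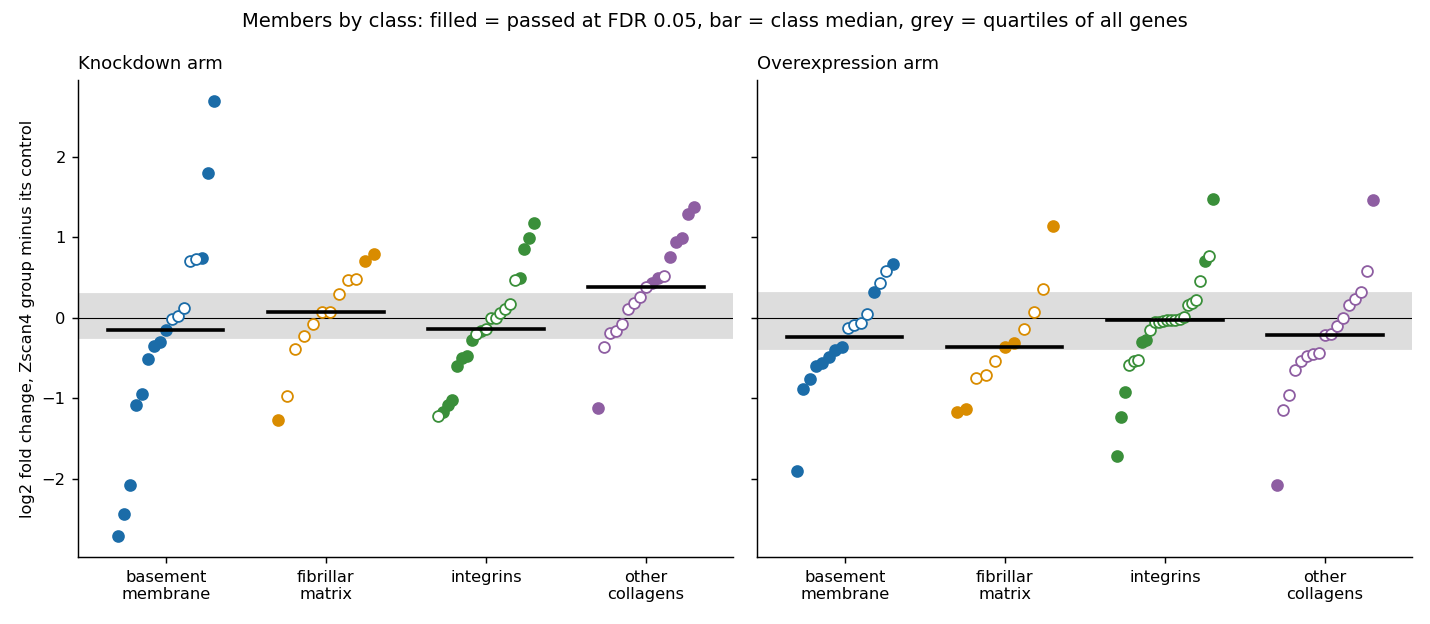
Log2 fold change of each member, Zscan4 group minus its control, by role, in the knockdown arm (left) and the overexpression arm (right). Filled points passed at a false discovery rate of 0.05, open points did not, the black bar is the median of the role, and the grey band spans the quartiles of all genes. Basement membrane genes spread from -2.71 to 2.69 in the knockdown and from -1.90 to 0.66 in the overexpression.

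The collagen IV genes Col4a1 and Col4a2 had the lowest fold changes of all members in the knockdown. Their proteins, the alpha 1 and alpha 2 chains, combine into the common form of collagen IV. Col4a1 (ENSMUSG00000031502, chr8:11198423-11312826, reverse strand) had 875 and 748 normalised reads in the KD Zscan4 libraries, against 4439 and 4317 in the KD control libraries. Col4a2 (ENSMUSG00000031503, chr8:11312805-11449287, forward strand) had 361 and 366 in the KD Zscan4 libraries, against 2365 and 2399 in the KD control libraries. For both genes the libraries of the 2 groups lay far apart and those within a group close together. The fold changes were -2.43 (SE 0.07, adjusted p = 5.7e-10) for Col4a1 and -2.71 (SE 0.06, adjusted p = 1.4e-10) for Col4a2. In bulk RNA, fewer cells of a kind that makes a transcript and less of it per cell cannot be told apart.

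The 2 genes lie head to head, and their annotated first bases overlap. Col4a2 starts at position 11312805 on the forward strand and Col4a1 at position 11312826 on the reverse strand of chromosome 8 (GRCm38.p6, RefSeq). The stretch is shown because the pair moved together. It is chr8:11312801-11312830, read on the forward strand, and the capitals mark the 22 bases that both genes' starts span.
Col4a1 and Col4a2: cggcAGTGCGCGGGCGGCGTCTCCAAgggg

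The overexpression arm gave a smaller change in the same direction. Col4a1 had 748 and 748 normalised reads in the OE Zscan4 libraries, against 1015 and 960.0 in the OE control libraries, a fold change of -0.40 (SE 0.08, adjusted p = 4.7e-04). Col4a2 had 387 and 365 in the OE Zscan4 libraries, against 498 and 468 in the OE control libraries, a fold change of -0.36 (SE 0.10, adjusted p = 0.0053). The groups did not overlap for either gene, and the Col4a2 call was lost without OE Zscan4 replicate 2. Per kilobase of exon, Col4a1 stood at 109 ± 11.97 in KD Zscan4, 587 ± 11.6 in KD control, 100.2 ± 0.0628 in OE Zscan4 and 132 ± 5.17 in OE control (normalised reads per kilobase, mean ± SD, n = 2 each). The KD control group stood well above the other 3 groups in these levels, although the tables were scaled separately and the groups of different arms were not tested against each other. The X-linked Col4a5, which encodes a chain of the other collagen IV networks, had 3.81 to 19.3 normalised reads in the 8 libraries and was not called in either arm.

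**Figure D2:**
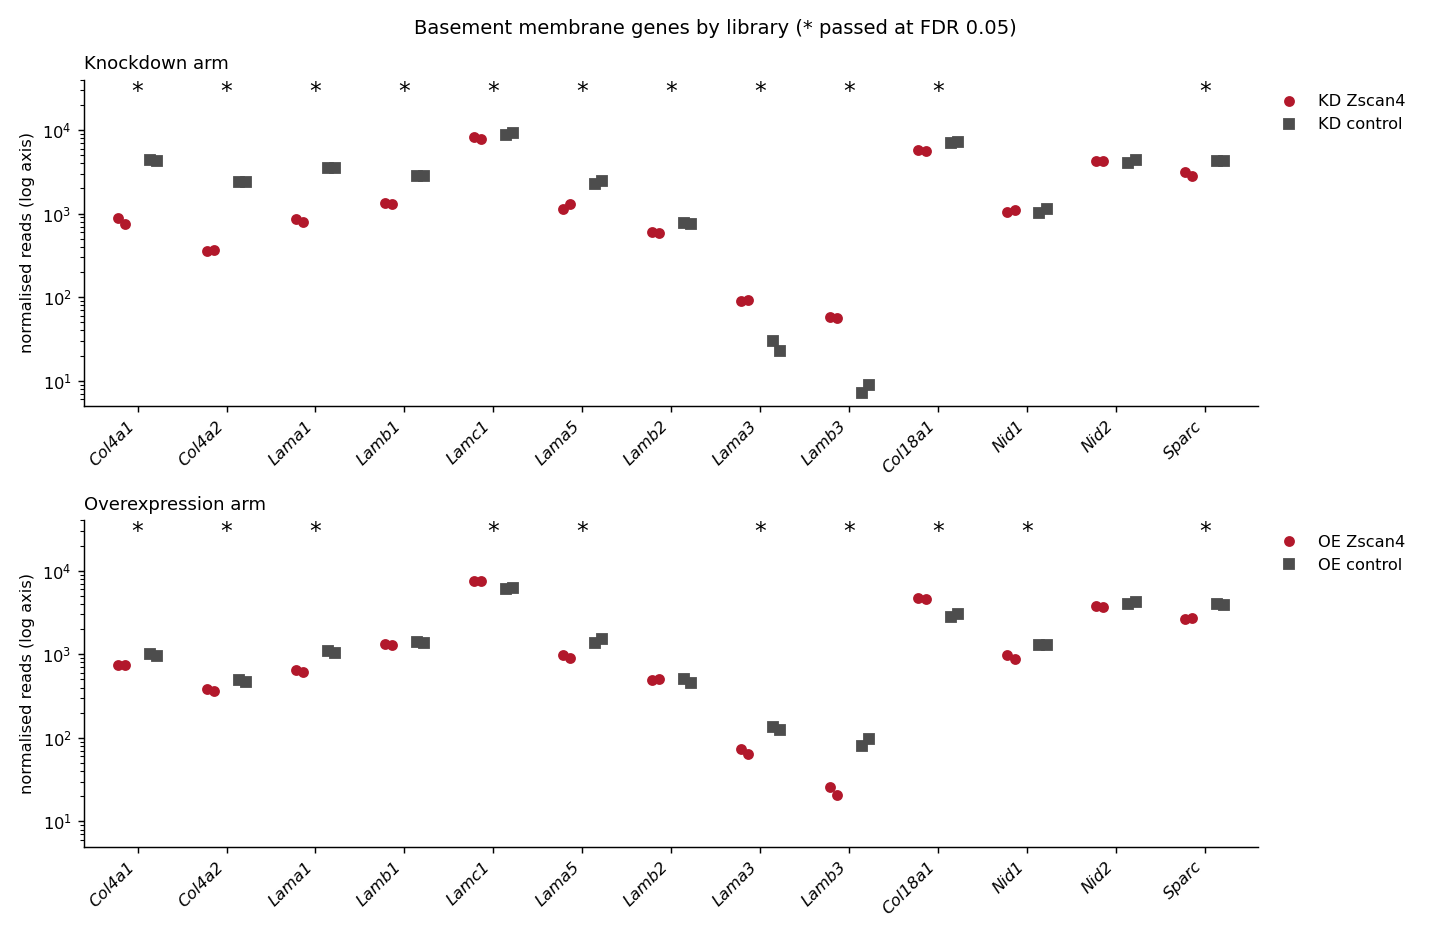
Normalised reads (log axis) of 13 basement membrane genes in every library of the knockdown arm (top) and the overexpression arm (bottom), with the Zscan4 libraries as red circles and their controls as grey squares. An asterisk marks genes that passed at a false discovery rate of 0.05. Col4a1, Col4a2 and Lama1 are far lower in KD Zscan4 than in KD control, while Lama3 and Lamb3 are higher in KD Zscan4 and lower in OE Zscan4 than in their controls.

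Lama1, Lamb1 and Lamc1 encode the chains of laminin 111, the main laminin of the early embryo. Lama1 had 851 and 803 normalised reads in the KD Zscan4 libraries, against 3503 and 3513 in the KD control libraries (fold change -2.08, SE 0.06, adjusted p = 3.6e-10). Lamb1 had 1326 and 1312 in the KD Zscan4 libraries, against 2828 and 2785 in the KD control libraries (fold change -1.09, SE 0.05, adjusted p = 5.6e-08). The alpha and beta chain genes thus fell by amounts far above the spread within groups. The gamma chain gene Lamc1 had 8146 and 7872 in the KD Zscan4 libraries, against 8644 and 9114 in the KD control libraries, a fold change of -0.15 (SE 0.05, adjusted p = 0.036). That small fall was lost with DESeq2 and without KD Zscan4 replicate 2, KD control replicate 1 or KD control replicate 2. Lamc1 is on chromosome 1, and relative to that chromosome's median its fold change was -0.71 (adjusted p = 1.1e-06).

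In the overexpression, 1 of the 3 chain genes of laminin 111 fell, 1 rose and 1 was not called. Lama1 fell, with 644 and 613 normalised reads in the OE Zscan4 libraries, against 1100.4 and 1034 in the OE control libraries (fold change -0.76, SE 0.08, adjusted p = 8.1e-07). Lamb1 had 1315 and 1281 in the OE Zscan4 libraries, against 1395 and 1366 in the OE control libraries, and was not called (fold change -0.09, adjusted p = 0.33). Lamc1 rose, with 7542 and 7534 in the OE Zscan4 libraries, against 5983 and 6135 in the OE control libraries (fold change 0.32, SE 0.06, adjusted p = 6.6e-04). Lama1 was therefore lower in the Zscan4 cells of both arms, whereas Lamc1 went in opposite directions.

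Lama5 and Lamb2 encode chains of the laminins of mature basement membranes, and laminin 511, with the Lama5 chain, is a known substrate of pluripotent cells. Lama5 had 1147 and 1290.0 normalised reads in the KD Zscan4 libraries, against 2278 and 2425 in the KD control libraries (fold change -0.95, SE 0.07, adjusted p = 9.0e-07). It also fell in the overexpression, with 985 and 915 in the OE Zscan4 libraries, against 1348 and 1538 in the OE control libraries (fold change -0.60, SE 0.08, adjusted p = 1.3e-05). Lamb2 fell to 605 and 592 in the KD Zscan4 libraries, against 768 and 756 in the KD control libraries (fold change -0.35, adjusted p = 0.0024). It was not called in the overexpression, where the groups overlapped (fold change 0.04, adjusted p = 0.75).

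Lama3 and Lamb3 encode chains of laminin 332, the laminin by which stratified epithelia are anchored. Both rose in the knockdown, at levels of 2.42 (Lama3) and 1.22 (Lamb3) normalised reads per kilobase of exon in KD control cells, where Lamb1 was at 283. Lama3 had 90.3 and 93.2 normalised reads in the KD Zscan4 libraries, against 29.6 and 22.5 in the KD control libraries (fold change 1.79, SE 0.23, adjusted p = 9.4e-05). Lamb3 had 57.8 and 56.3 in the KD Zscan4 libraries, against 7.16 and 8.98 in the KD control libraries (fold change 2.69, SE 0.31, adjusted p = 4.4e-05), the highest fold change of all members. Lamb3 is on chromosome 1, and relative to its median it stayed called at 2.13 (adjusted p = 5.9e-04).

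Both genes moved the other way in the overexpression. Lamb3 had 25.5 and 20.7 normalised reads in the OE Zscan4 libraries, against 80.1 and 97.9 in the OE control libraries (fold change -1.90, SE 0.25, adjusted p = 9.7e-06). Lama3 had 74.4 and 63.9 in the OE Zscan4 libraries, against 133 and 123 in the OE control libraries (fold change -0.88, SE 0.18, adjusted p = 6.2e-04). They were thus higher in KD Zscan4 and lower in OE Zscan4 than in their own controls, with no overlap of groups in either arm. Lama2 and Lama4, chains of muscle and vessel laminins, had at most 34.9 normalised reads in any library and were not called where measured.

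Promoter sequence of 3 laminin genes is shown here for its contrast: Lamb1, which fell in the knockdown, Lama5, which fell in both arms, and Lamb3, which moved in opposite directions. The windows are the bases up to 250 before the RefSeq start that lie outside annotated exons (GRCm38.p6), read along the gene's strand, at chr12:31265043-31265233 (forward strand) for Lamb1, chr2:180225860-180226109 (reverse strand) for Lama5 and chr1:193301744-193301992 (forward strand) for Lamb3. Capitals mark the letters GGGCGG of a GC box or CCAAT of a CCAAT box, on either strand.
Lamb1: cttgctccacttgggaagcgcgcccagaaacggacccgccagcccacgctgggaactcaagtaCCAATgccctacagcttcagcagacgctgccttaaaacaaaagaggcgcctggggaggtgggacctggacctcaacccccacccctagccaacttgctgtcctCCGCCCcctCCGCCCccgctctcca
Lama5: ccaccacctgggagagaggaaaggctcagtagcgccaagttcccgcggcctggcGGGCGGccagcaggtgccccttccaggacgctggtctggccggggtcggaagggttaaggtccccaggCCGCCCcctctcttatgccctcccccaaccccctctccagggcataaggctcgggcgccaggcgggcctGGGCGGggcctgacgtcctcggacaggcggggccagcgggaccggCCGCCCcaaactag
Lamb3: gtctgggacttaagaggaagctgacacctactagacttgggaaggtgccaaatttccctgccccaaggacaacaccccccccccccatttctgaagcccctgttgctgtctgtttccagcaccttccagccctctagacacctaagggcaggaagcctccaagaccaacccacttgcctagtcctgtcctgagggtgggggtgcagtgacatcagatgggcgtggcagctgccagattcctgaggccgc

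The Lamb1 window held 2 GC boxes and 1 CCAAT box, the Lama5 window 4 GC boxes, and the Lamb3 window no match to any motif searched. The letters were also searched in the 250 bases before each start, annotated exons included, for the 49 of 71 measured members with an entry. There 30 of 53 promoters held GGGCGG, against 32.7% of all 32851 promoters, and 14 of 53 held CCAAT, against 33.9%. Among the 13 basement membrane promoters, 6 held GGGCGG and 6 held CCAAT. None of the 13 held the letters AGATAA, which GATA factors bind and which 9.99% of all promoters hold, or the letters ACAAAG, which SOX factors bind and which 16.5% hold. A match, or its lack, describes the letters of these windows alone.

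Nid1 and Nid2 encode the nidogens, which link laminin and collagen IV. Nid1 had 1042 and 1091 normalised reads in the KD Zscan4 libraries, against 1029.9 and 1134 in the KD control libraries, and Nid2 had 4299 and 4226, against 4039.9 and 4335. The groups overlapped for both genes, and neither was called (adjusted p = 0.86 and 0.74). In the overexpression, Nid1 fell to 969 and 881 in the OE Zscan4 libraries, against 1298 and 1294 in the OE control libraries (fold change -0.49, SE 0.08, adjusted p = 6.2e-05). Nid2 had 3810.5 and 3674 in the OE Zscan4 libraries, against 3997 and 4187 in the OE control libraries, and was not called (fold change -0.13, adjusted p = 0.12), but it was called lower after chromosome centring (-0.20, adjusted p = 0.022) and without OE control replicate 1 (adjusted p = 0.038).

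Sparc encodes a collagen-binding protein of basement membranes that is abundant in parietal endoderm. It had 3123 and 2849.8 normalised reads in the KD Zscan4 libraries, against 4238 and 4283 in the KD control libraries (fold change -0.51, SE 0.06, adjusted p = 2.7e-05). In the overexpression it had 2630.3 and 2749 in the OE Zscan4 libraries, against 4053 and 3886 in the OE control libraries (fold change -0.56, SE 0.07, adjusted p = 2.8e-06). Sparc thus fell in both arms. It is on chromosome 11, and relative to that chromosome's median its fold change in the overexpression was -0.22 (adjusted p = 0.01). Col18a1, a collagen with heparan sulfate chains whose end fragment is endostatin, had 5823 and 5655 in the KD Zscan4 libraries, against 6906 and 7257 in the KD control libraries (fold change -0.30, adjusted p = 6.0e-04). It rose in the overexpression, to 4723 and 4603 in the OE Zscan4 libraries, against 2821 and 3069.5 in the OE control libraries (fold change 0.66, SE 0.07, adjusted p = 5.6e-07).

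Taking the 17 basement membrane genes of the knockdown table together, the summed level was 28117 and 27296 normalised reads in the KD Zscan4 libraries, against 41281 and 42571 in the KD control libraries. The 16 genes of the overexpression table summed to 24731 and 24299.7 normalised reads in the OE Zscan4 libraries, against 24630.3 and 24968 in the OE control libraries, so there the groups overlapped. Other sums gave other orders. As a percent of all reads in genes, the same 16 genes made up 0.119% and 0.116% of the OE Zscan4 libraries, against 0.127% and 0.135% of the OE control libraries. Without Nid1, Nid2 and Sparc, the other 13 summed to 17322 and 16995 normalised reads in the OE Zscan4 libraries, against 15283 and 15601 in the OE control libraries. In KD control cells, the order of levels per kilobase of exon was Sparc, Lamc1, Col18a1, Nid2, Col4a1, Lama1, Col4a2, Lamb1, Lama5, Nid1 and Lamb2, from 1125 to 125 normalised reads per kilobase, with Lama1 at 362 ± 0.696 and Col4a2 at 359.9 ± 3.6 not separated by their SD. In KD Zscan4 cells Lamc1 came first at 968 ± 23.4, Col4a1 stood at 109 ± 11.97 and Col4a2 at 54.9 ± 0.499 (mean ± SD, n = 2).

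Markers of primitive endoderm and its parietal and visceral derivatives fell in the knockdown, as did Col4a1, Col4a2, Lama1 and Lamb1. Of 17 listed genes, 14 were in the table, where 18.5% of all genes were called lower. Of the 14, 13 fell and 1, Hnf4a, was not called, with a median fold change of -3.70. Their summed level was 1402 and 1363 normalised reads in the KD Zscan4 libraries, against 5394 and 5056 in the KD control libraries. Among the defining markers, Gata6, a transcription factor of that layer, had 25.4 and 16.5 normalised reads in the KD Zscan4 libraries, against 467 and 383 in the KD control libraries, and Foxa2 had 0 and 3.88, against 44.8 and 31.4. Afp, Ttr and Thbd were not in the table. In the overexpression, 9 of 13 listed markers in the table fell and Lrp2, an endocytic receptor, rose. Of all genes there, 22.1% were called lower and 22.3% higher. The 13 markers had a median of -0.85. They summed to 1180.2 and 1109 normalised reads in the OE Zscan4 libraries, against 1149 and 1129 in the OE control libraries. The part of such cells in the matrix results was not tested.

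Of the fibrillar matrix genes, Fn1 and Col5a1 rose and Col27a1 fell in the knockdown. Fn1 encodes fibronectin, which integrins assemble into fibrils. Fn1 had 11153 and 10464 normalised reads in the KD Zscan4 libraries, against 6159 and 6305 in the KD control libraries (fold change 0.79, SE 0.05, adjusted p = 3.8e-07). It is on chromosome 1, and relative to the median of that chromosome its fold change was 0.24 (adjusted p = 0.0041). In the overexpression Fn1 fell to 8306 and 8160.4 in the OE Zscan4 libraries, against 10254 and 10181 in the OE control libraries (fold change -0.31, SE 0.06, adjusted p = 7.9e-04).

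Col5a1, a chain of collagen V, which starts collagen fibrils, was called in the same directions as Fn1. It had 294 and 328 normalised reads in the KD Zscan4 libraries, against 201 and 182 in the KD control libraries (fold change 0.70, SE 0.11, adjusted p = 4.8e-04). It had 225 and 244 in the OE Zscan4 libraries, against 294 and 309 in the OE control libraries (fold change -0.36, adjusted p = 0.015), a call lost with DESeq2 and without OE Zscan4 replicate 1. The only fibrillar matrix gene called lower in the knockdown was Col27a1, a fibrillar collagen of cartilage, with 16.2 and 30.1 in the KD Zscan4 libraries, against 57.3 and 52.8 in the KD control libraries (fold change -1.27, adjusted p = 0.0067). Its 2 KD Zscan4 libraries differed from each other by more than its 2 controls did.

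The other fibrillar collagens were low. Col1a1, the main chain of collagen I, had 83.2 and 74.7 normalised reads in the KD Zscan4 libraries, against 69.9 and 80.9 in the KD control libraries, and the groups overlapped (adjusted p = 0.81). In the overexpression it fell to 43.6 and 49.8 in the OE Zscan4 libraries, against 96.3 and 111 in the OE control libraries (fold change -1.13, SE 0.20, adjusted p = 2.2e-04), and relative to chromosome 11 by -0.80 on the log2 scale (adjusted p = 0.003). Col5a3, another collagen V chain, also fell there, with 38.3 and 52.6 in the OE Zscan4 libraries, against 93.4 and 112 in the OE control libraries (fold change -1.17, adjusted p = 3.1e-04). Col1a2 and Col5a2 were not called in either arm. In the overexpression both were called lower without OE Zscan4 replicate 2 or OE control replicate 2, and Col5a2 also with edgeR (adjusted p = 0.049). Col3a1, in the knockdown table alone, had 10.1 and 4.85 in the KD Zscan4 libraries, against 19.7 and 11.2 in the KD control libraries (adjusted p = 0.14). Relative to the median of chromosome 1, Col3a1 was called lower (fold change -1.54, adjusted p = 0.039).

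Fbn1 encodes fibrillin 1, the core of microfibrils. It rose in the overexpression, with 88.2 and 86.4 normalised reads in the OE Zscan4 libraries, against 43.9 and 35.02 in the OE control libraries (fold change 1.14, SE 0.22, adjusted p = 4.4e-04). In the knockdown it had 99.4 and 115 in the KD Zscan4 libraries, against 138 and 142 in the KD control libraries, and missed the threshold (fold change -0.39, adjusted p = 0.061), which it passed without KD Zscan4 replicate 2. Of its exon bases, 20.1% overlap the annotated gene Gm9913, and the strand setting of the counting is not known, so reads of the 2 genes may not have been told apart. The summed level of the fibrillar matrix genes was 11932 and 11299 normalised reads in the KD Zscan4 libraries, against 6904 and 7038 in the KD control libraries. In the overexpression it was 8878 and 8834 normalised reads in the OE Zscan4 libraries, against 11029.8 and 10978 in the OE control libraries, and most of each sum was Fn1. Fibroblast markers were followed beside these genes, and 6 listed genes, Dcn, Lum, Prrx1, Twist2, S100a4 and Fap, were in neither table. Of 7 in each table, 2 rose (Thy1 and Pdgfrb) and 1 fell (Twist1) in the knockdown, where 35.7% of all genes were called. In the overexpression 3 of the 7 fell (Thy1, Pdgfrb and Acta2), where 44.3% of all genes were called. The summed level of the 7 markers was 529 and 484 normalised reads in the OE Zscan4 libraries, against 940.2 and 928 in the OE control libraries. In the knockdown it was 609 and 549 normalised reads in the KD Zscan4 libraries, against 519 and 520.0 in the KD control libraries, and the part of such cells in the result was not tested.

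Integrin genes had 12 of 21 called in the knockdown, 8 lower and 4 higher. Itgb1, the beta subunit shared by most laminin and collagen receptors, had by far the highest level per kilobase of the integrins. It had 4483 and 4489 normalised reads in the KD Zscan4 libraries, against 6130.2 and 6333 in the KD control libraries (fold change -0.47, SE 0.05, adjusted p = 1.6e-05). Itgb5, the partner of alpha v in a vitronectin receptor, had 432 and 429 in the KD Zscan4 libraries, against 882 and 945 in the KD control libraries (fold change -1.08, SE 0.07, adjusted p = 7.3e-07). Itgav, the alpha v gene itself, had 234 and 219 in the KD Zscan4 libraries, against 338 and 352 in the KD control libraries (fold change -0.60, SE 0.10, adjusted p = 6.4e-04). Both genes of that receptor were lower in each KD Zscan4 library than in each control.

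Itgb4, the beta subunit of the laminin 332 receptor of hemidesmosomes, had 231 and 186 normalised reads in the KD Zscan4 libraries, against 390.5 and 457 in the KD control libraries (fold change -1.02, SE 0.12, adjusted p = 5.7e-05). It was lower in the knockdown, where the laminin 332 genes Lama3 and Lamb3 were higher. Its alpha partner Itga6, also a partner of Itgb1 in a laminin receptor of ES cells, had 2001 and 1904 in the KD Zscan4 libraries, against 2193 and 2188 in the KD control libraries (fold change -0.17, adjusted p = 0.035). That call was lost with DESeq2, after chromosome centring and without KD Zscan4 replicate 2 or either KD control library. Itga9, Itga8 and Itgb7 also fell, by 0.50, 1.17 and 0.27 on the log2 scale. The Itga8 call was lost with DESeq2 and without KD control replicate 2. The Itgb7 call was lost after chromosome centring (fold change -0.20, adjusted p = 0.051), with DESeq2 and without either KD control library. Itga5, the alpha subunit of the fibronectin receptor, and Itga3, of another laminin receptor, were not called (fold changes -0.14 and -0.01, adjusted p = 0.066 and 0.95).

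The 4 genes of the integrin group that rose in the knockdown had at most 275 normalised reads in any library of that arm. Itga2b and Itgb3 encode the 2 subunits of the fibrinogen receptor of platelets, and both rose. Itgb3 had 85.2 and 77.7 normalised reads in the KD Zscan4 libraries, against 50.2 and 32.6 in the KD control libraries (fold change 0.99, SE 0.24, adjusted p = 0.0066). Itga2b had 69.01 and 64.1 in the KD Zscan4 libraries, against 39.4 and 33.7 in the KD control libraries (fold change 0.85, SE 0.22, adjusted p = 0.01). Itgam, the alpha subunit of a leukocyte integrin, had 32.5 and 40.8 in the KD Zscan4 libraries, against 17.9 and 13.5 in the KD control libraries (fold change 1.18, adjusted p = 0.012), but 68.7% of its exon bases overlap the annotated gene Gm49368. Itgb3bp, a centromere protein and no subunit, rose by 0.49 on the log2 scale (adjusted p = 0.0069). None of these 4 passed without KD control replicate 2, where 5 integrin genes were called, all lower. DESeq2 called 7 integrin genes, Itga2b and Itgam not among them (adjusted p = 0.094 and 0.098), and the Itgam call was also lost without KD Zscan4 replicate 2. Of 7 listed haematopoietic markers, Ptprc, Tyrobp, Fcer1g and Cd53 were in neither table. Of the other 3, Laptm5 fell in the knockdown (fold change -1.13), where 35.7% of all genes were called. Their summed level was 710.4 and 648 normalised reads in the KD Zscan4 libraries, against 1204 and 1219 in the KD control libraries, and its part in the result was not tested.

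**Figure D3:**
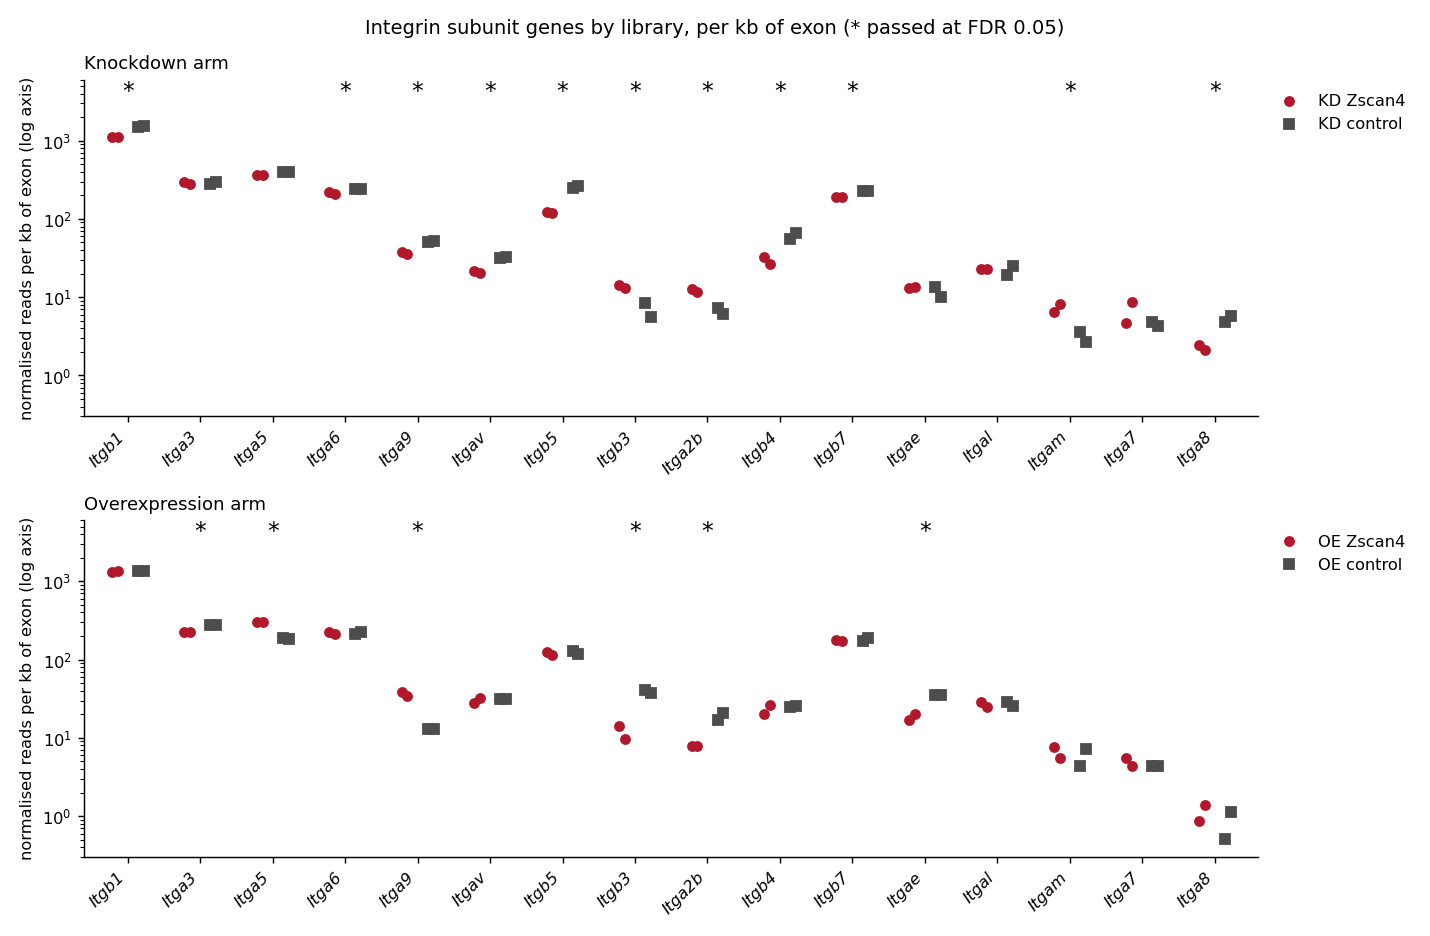
Normalised reads per kilobase of exon (log axis) of 16 integrin subunit genes in every library of the knockdown arm (top) and the overexpression arm (bottom), Zscan4 libraries as red circles and controls as grey squares. An asterisk marks genes that passed at a false discovery rate of 0.05. Itgb3 and Itga2b are higher in KD Zscan4 and lower in OE Zscan4 than in their controls, and Itga9 shows the reverse.

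In the overexpression, 24 of 68 members were called, 6 higher and 18 lower, where 44.3% of all genes of the table were called, 22.3% higher and 22.1% lower. Of protein-coding genes that averaged 20 or more normalised reads, 52.6% were called, 26.3% higher and 26.3% lower, against 24 of the 54 members at that level. The median fold change of the members was -0.14 and that of all genes -0.00. Of 16 basement membrane genes, 8 fell and 2 rose, and of 11 fibrillar matrix genes, 4 fell and 1 rose. Of 24 integrin genes, 5 fell and 2 rose, and of 17 other collagens, 1 rose and 1 fell.

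The 2 integrin genes that rose in the overexpression were Itga9 and Itga5. Itga9, the alpha subunit of a receptor for tenascin C and osteopontin, had 293 and 267 normalised reads in the OE Zscan4 libraries, against 101 and 99.9 in the OE control libraries (fold change 1.47, SE 0.14, adjusted p = 1.9e-07). Itga5 had 1512 and 1507 in the OE Zscan4 libraries, against 941 and 909.5 in the OE control libraries (fold change 0.71, SE 0.07, adjusted p = 6.4e-07). Itga5 was higher and Fn1, the gene of its ligand, lower in OE Zscan4 than in OE control. Itgb1, Itga6, Itgav and Itgb5 did not pass in the overexpression: fold changes were -0.03 for Itgb1, 0.00 for Itga6, -0.04 for Itgav and -0.05 for Itgb5 (adjusted p = 0.75, 0.98, 0.78 and 0.72).

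Of the 5 integrin genes that fell, 4 are on chromosome 11. Itgb3 had 82.9 and 57.3 normalised reads in the OE Zscan4 libraries, against 239 and 218 in the OE control libraries (fold change -1.71, SE 0.18, adjusted p = 6.8e-07). Itga2b had 42.5 and 43.2 in the OE Zscan4 libraries, against 93.4 and 112 in the OE control libraries (fold change -1.24, SE 0.21, adjusted p = 1.1e-04). Itgae, the alpha subunit by which lymphocytes bind E-cadherin, had 77.6 and 92.1 in the OE Zscan4 libraries, against 161 and 161 in the OE control libraries (fold change -0.92, adjusted p = 1.8e-04). Relative to the median of chromosome 11 these 3 stayed called, at -1.38, -0.90 and -0.58. Itga3 had 1269 and 1273 in the OE Zscan4 libraries, against 1587 and 1563 in the OE control libraries (fold change -0.31, adjusted p = 0.0016), and relative to that median it was at 0.03 and not called (adjusted p = 0.77). Itgb3bp, on chromosome 4, fell by 0.27 on the log2 scale (adjusted p = 0.046), a call lost with DESeq2, in the fit of all 8 libraries (adjusted p = 0.055) and without OE Zscan4 replicate 1, OE Zscan4 replicate 2 or OE control replicate 1.

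**Figure D4:**
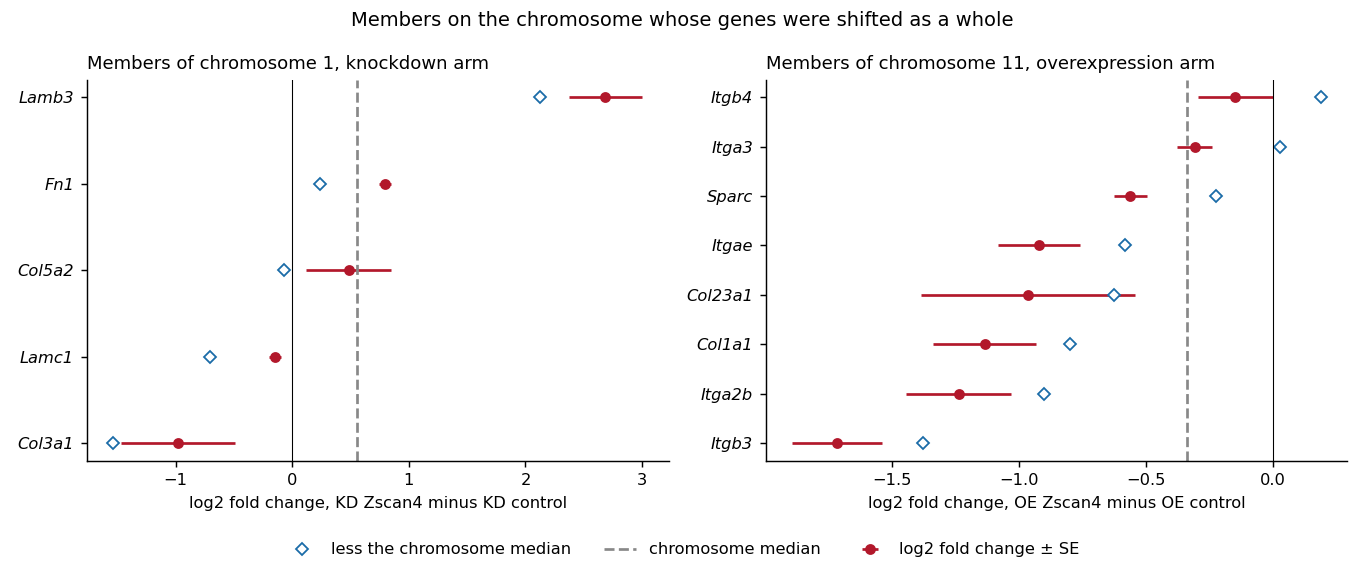
Log2 fold change ± SE (red) of the members reported here on chromosome 1 in the knockdown (left) and on chromosome 11 in the overexpression (right), with the chromosome's median (dashed line) and the value left after the median was taken off (blue diamonds). Lamb3 stays at 2.13 and Itgb3 at -1.38, while Itga3 at 0.03 is close to the median of its chromosome.

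The other collagens, those of beaded filaments, of cartilage and of the cell surface, gave 7 rises and 1 fall among 17 in the knockdown. Col9a2, a chain of collagen IX, which coats cartilage fibrils, had 399.8 and 356 normalised reads in the KD Zscan4 libraries, against 174 and 207 in the KD control libraries (fold change 0.99, SE 0.12, adjusted p = 4.7e-05). Col26a1 had 40.6 and 23.3 in the KD Zscan4 libraries, against 11.6 and 12.4 in the KD control libraries (fold change 1.29, adjusted p = 0.015). The gene that fell was Col6a5, a collagen VI chain, with 52.8 and 53.4 in the KD Zscan4 libraries, against 124 and 111 in the KD control libraries (fold change -1.13, SE 0.18, adjusted p = 4.0e-04). Col17a1, the hemidesmosome collagen, rose by 0.95, Col6a2 by 0.75, Col9a3 by 0.49 and Col13a1 by 0.43 on the log2 scale, all at 14.3 to 213 normalised reads. With DESeq2 the calls of Col26a1, Col17a1, Col6a2, Col9a3 and Col13a1 were lost (adjusted p = 0.083, 0.21, 0.18, 0.24 and 0.13). Each of them was also lost in at least 1 fit that left out a library. Col6a6, the only member with a mean under 20 that was called, had 28.4 and 26.2 in the KD Zscan4 libraries, against 12.5 and 7.86 in the KD control libraries.

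DESeq2 called 2 of these 17 genes in the knockdown, 1 higher and 1 lower, and 5 were called without KD Zscan4 replicate 1, KD control replicate 1 or KD control replicate 2. In the overexpression, Col26a1 had 39.3 and 31.00 normalised reads in the OE Zscan4 libraries, against 144 and 157 in the OE control libraries (fold change -2.07, SE 0.20, adjusted p = 3.7e-07), the lowest fold change of the members there. Col8a2, a chain of the network collagen VIII, had 51.03 and 55.4 in the OE Zscan4 libraries, against 20.02 and 17.5 in the OE control libraries (fold change 1.46, SE 0.28, adjusted p = 4.5e-04). The other 15 genes of this kind did not pass in the overexpression, with fold changes from -1.14 for Col12a1 to 0.58 for Col6a3.

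Of the 64 members in both tables, 16 were called in both arms. Of these, 5 fell in both, namely Col4a1, Col4a2, Lama1, Lama5 and Sparc, and all 5 are basement membrane genes. Another 8 rose in the knockdown and fell in the overexpression, namely Lama3, Lamb3, Col5a1, Fn1, Itga2b, Itgb3, Itgb3bp and Col26a1. Col18a1, Lamc1 and Itga9 fell in the knockdown and rose in the overexpression. With DESeq2, the knockdown calls of Itga2b (adjusted p = 0.094), Col26a1 (0.083) and Lamc1 (0.057) were lost. The overexpression calls of Col5a1 (adjusted p = 0.11) and Itgb3bp (0.21) were lost with DESeq2 too. Some of the calls behind these groups were also lost when single libraries were left out. A further 19 were called in the knockdown alone, 8 in the overexpression alone and 21 in neither, which by itself does not show that the effects differed. Of all genes, 35.7% were called in the knockdown and 44.3% in the overexpression. The share of all genes called in both arms, in the same or opposite directions, was not counted. Whether these counts of members are unusual was therefore not tested.

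**Figure D5:**
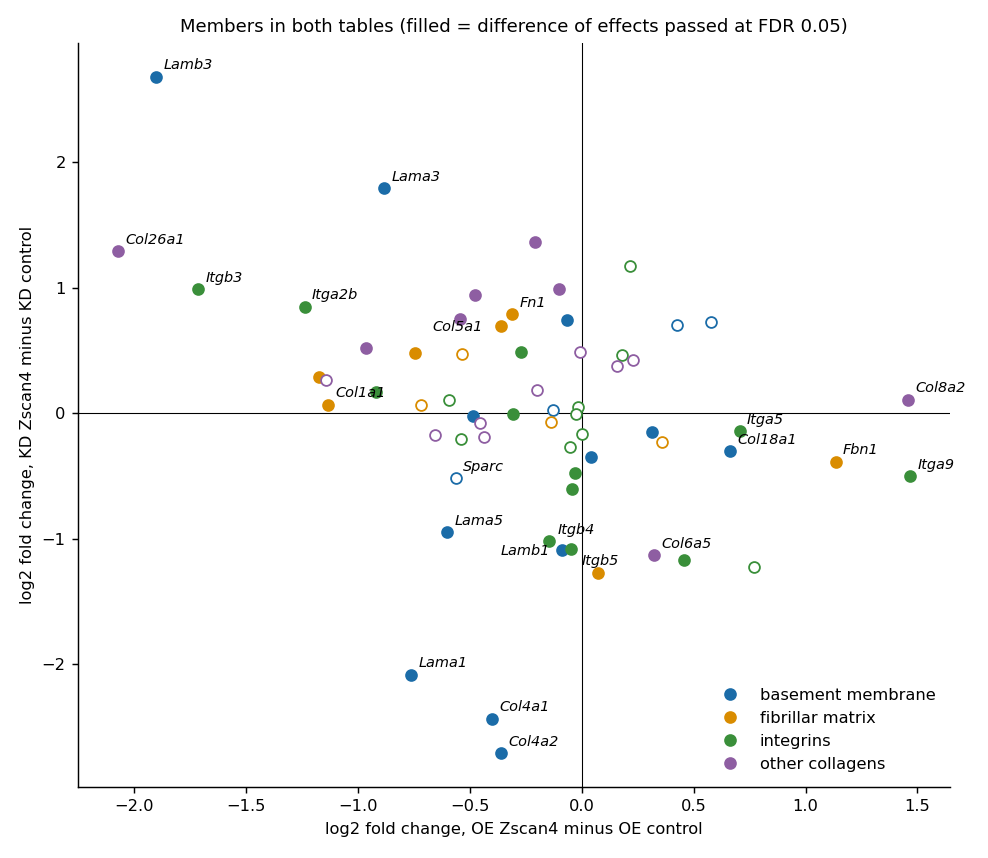
Log2 fold change in the overexpression (OE Zscan4 minus OE control, horizontal axis) and in the knockdown (KD Zscan4 minus KD control, vertical axis) of the 64 members in both tables, coloured by role. Filled points passed the test of the difference of the effects at a false discovery rate of 0.05. Col4a1, Col4a2, Lama1 and Lama5 lie at the lower left, Lamb3, Lama3, Col26a1 and Itgb3 at the upper left, and Itga9, Fbn1 and Col18a1 at the lower right.

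The difference itself, the overexpression effect minus the knockdown effect, was tested over the 17409 genes of both tables with each arm's own controls. It was called for 39 of 64 members, 19 higher and 20 lower, where 44.7% of all genes were called, 22.9% higher and 21.8% lower. By role, it was called for 12 of 16 basement membrane genes, 7 of 11 fibrillar matrix genes, 12 of 21 integrin genes and 8 of 16 other collagens. The difference was -4.59 (SE 0.39, adjusted p = 1.3e-07) for Lamb3, and relative to the chromosome medians it was -3.96. It was 2.35 (SE 0.11, adjusted p = 1.0e-10) for Col4a2, which fell in both arms and by less in the overexpression. For Itga9 it was 1.97 (SE 0.15, adjusted p = 5.8e-08), and for Itgb3 -2.71 (SE 0.31, adjusted p = 4.0e-06). Sparc, which fell in both arms, had a difference of -0.05 (SE 0.08, adjusted p = 0.68), and relative to the chromosome medians 0.27 (adjusted p = 0.015). DESeq2 called the difference for 4 of the 16 other collagens.

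Basement membrane partners, a list of 18 further genes of which 15 were in each table, gave 3 rises and 10 falls in the knockdown (median -0.67) and 1 rise and 7 falls in the overexpression (median -0.39), where 35.7% of all genes were called in the knockdown and 44.3% in the overexpression. Ntn1, a netrin with laminin-like domains, had 216 and 217 normalised reads in the KD Zscan4 libraries, against 1637 and 1685 in the KD control libraries (fold change -2.93, SE 0.07, adjusted p = 1.7e-10). Frem2, which anchors epidermis to its basement membrane, fell in both arms, by 1.65 in the knockdown and by 1.24 in the overexpression on the log2 scale. Of the rises, Egfl6 had 31.5 and 24.3 in the KD Zscan4 libraries, against 6.27 and 5.62 in the KD control libraries, and Agrn, the heparan sulfate proteoglycan agrin, rose by 0.21 (adjusted p = 0.0083), a call lost without KD control replicate 1. Hmcn1, on chromosome 1, rose by 1.10 but was not called relative to that chromosome, with DESeq2, or without KD Zscan4 replicate 2 or KD control replicate 2. In the overexpression Tinagl1 and Npnt, proteins of the basement membrane, fell by 1.10 and 1.02, and Bcam, a receptor for the Lama5 chain, rose by 0.25. The Tinagl1 call was lost without OE control replicate 1 (adjusted p = 0.051) and the Bcam call without OE Zscan4 replicate 1 (adjusted p = 0.13).

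Collagen processing enzymes gave 1 rise and 10 falls among 27 in the knockdown (median -0.17) and 6 rises and 9 falls among 25 in the overexpression (median 0.11). The 11 of 27 and 15 of 25 called stand beside 35.7% and 44.3% of all genes. Of protein-coding genes averaging 20 or more normalised reads, 42.9% and 52.6% were called, but the list was not filtered by level. Loxl2, a lysyl oxidase that crosslinks collagen IV, had 391 and 336 normalised reads in the KD Zscan4 libraries, against 229 and 240.3 in the KD control libraries (fold change 0.62, adjusted p = 7.5e-04). It had 251 and 256 in the OE Zscan4 libraries, against 478 and 437 in the OE control libraries (fold change -0.85, adjusted p = 4.3e-06). Among the falls in the knockdown were Fkbp10, a collagen chaperone (-0.88), and P3h4 (-0.91). P4ha1 and P4ha2, catalytic subunits of collagen prolyl 4-hydroxylase, fell in the overexpression (fold changes -1.31 and -1.18). P4ha1 fell to 642 and 644 in the OE Zscan4 libraries, against 1776 and 1440.0 in the OE control libraries. P4ha2 is on chromosome 11, and relative to that chromosome's median its fold change was -0.84 (adjusted p = 3.6e-06). P4hb, also on chromosome 11 and among the 9 falls, was not called relative to that median (-0.07, adjusted p = 0.50). Crtap, of the prolyl 3-hydroxylase complex, rose (1.14).

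Genes of integrin adhesion sites gave 6 rises and 9 falls among 27 in the knockdown (median -0.12) and 7 rises and 9 falls among 27 in the overexpression (median -0.13). That is 15 of 27 and 16 of 27 called, beside 42.9% and 52.6% of such protein-coding genes. Zyx, the adhesion protein zyxin, had 300.4 and 369.8 normalised reads in the KD Zscan4 libraries, against 923 and 952 in the KD control libraries (fold change -1.49, adjusted p = 4.4e-07), while Vcl, vinculin, which links talin to actin, had 1393 and 1344, against 725 and 745 (fold change 0.90, adjusted p = 8.9e-07). Tns3, a tensin that binds integrin tails, fell in the knockdown and rose in the overexpression (-0.68 and 0.65). Among matrix proteases and their inhibitors, 2 rose and 4 fell of 16 in the knockdown (median -0.06). In the overexpression 2 rose and 7 fell of 17 (median -0.35). That is 6 of 16 and 9 of 17 called, beside the same shares. Mmp14, a membrane-bound collagenase, had 407 and 347 in the KD Zscan4 libraries, against 776 and 827 in the KD control libraries (fold change -1.09, adjusted p = 2.7e-06). It had 349.8 and 290.3 in the OE Zscan4 libraries, against 149 and 179 in the OE control libraries (fold change 0.96, adjusted p = 1.8e-05). Timp2, which inhibits metalloproteases and binds Mmp14, moved the other way, by 0.45 in the knockdown, lost with DESeq2 and without KD Zscan4 replicate 1 or KD control replicate 1, and by -1.10 in the overexpression.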

How the data were processed

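The submitters' processing notes name cutadapt, HISAT2, the mm10 build, featureCounts and DESeq2; versions, annotation and strand setting are not given in the sources used here, so overlapping and antisense genes are uncertain. The deposited gene tables hold a signal, which the authors made per arm as reads divided by 1 factor per library. Undoing that division gave whole reads, within 0.01, for 100% of values, and the factors equal DESeq2's median of ratios. Each library then held 17.39 to 22.38 M reads, which limits precision for genes with few reads; PCR duplicates were not marked. Repeat tables were not used here.

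Symbols, exon lengths and coordinates came from GENCODE M21 (GRCm38), which matched 17913 of 17938 and 18259 of 18292 gene IDs. Promoters came from RefSeq (GRCm38.p6). The design named limma-trend (limma 3.58.1, R 4.3.3) on log2(value + 1), two-sided, within each table, and 1 fit of all 8 libraries over 17409 genes for the difference of effects. The procedure was tested on simulated data. Count tests on recovered whole reads were alternatives: edgeR 4.0.16 called 6483, 8185 and 7866 genes in the knockdown, the overexpression and their difference, DESeq2 1.42.0 4125, 5638 and 6226, and limma-trend 6403, 8111 and 7787. Other alternatives were pseudocounts of 0.5 and 5, a mean of at least 10, TMM scaling, voom, the replicate number as a block, chromosome centring (taking off the median fold change of protein-coding genes averaging 20 or more on the same chromosome), leaving out each library, and 1 fit of all libraries. TMM moved the median of all genes by less than 0.02.

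Samples were grouped by title. Basement membrane genes were Col4a1 to Col4a6, Col15a1, Col18a1, laminins, nidogens and Sparc; fibrillar matrix genes were collagens I, II, III, V, XI, XXIV and XXVII, Fn1 and Fbn1. The members, roles, lists and tests were chosen with earlier results of these data known. Named by rule were up to 6 rises and 6 falls per role, called, with a mean of at least 20 and groups that do not overlap, up to 3 rises and 3 falls per further list, and Col4a1, Col4a2, Lama1, Lama5, Lamb1, Lamc1, Nid1, Nid2, Sparc, Fn1, Fbn1, Col1a1, Col1a2, Col3a1, Col5a1, Col5a2, Itga5, Itga6, Itgav, Itgb1 and Itgb5. Other members were named after their values were seen. Of the members, 1 is counted but its own values are not reported here. Of endothelial markers, 1 of 3 rose in the knockdown and 2 of 4 fell in the overexpression. Of 8 ES cell markers, 3 rose and 2 fell in the knockdown, and 7 rose in the overexpression. Of all genes, 17.2% were called higher and 18.5% lower in the knockdown, and 22.3% and 22.1% in the overexpression.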

Additional observations from a re-analysis of the deposited data

Results flagged for a closer look

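For 34 of the members that the naming rule takes for this comparison, the effect of the overexpression differed from that of the knockdown by the test of the difference itself (limma-trend, adjusted over the 17409 genes of both tables). Each value is the overexpression effect minus the knockdown effect on the log2 scale.

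Among basement membrane genes the difference was 2.35 for Col4a2, 2.04 for Col4a1, 1.32 for Lama1, 1.00 for Lamb1, 0.97 for Col18a1, 0.46 for Lamc1 and 0.35 for Lama5. It was -4.59 for Lamb3, -2.67 for Lama3 and -0.47 for Nid1. Lama1, Lama5, Col4a1 and Col4a2 fell in both arms, so their positive values mean a smaller fall in the overexpression.

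Among fibrillar matrix genes it was 1.52 for Fbn1 and 1.35 for Col27a1, and -1.47 for Col5a3, -1.23 for Col5a2, -1.20 for Col1a1, -1.11 for Fn1 and -1.06 for Col5a1. Col5a2 was called in neither arm alone.

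Among integrin genes it was 1.97 for Itga9, 1.03 for Itgb5, 0.87 for Itgb4, 0.84 for Itga5, 0.56 for Itgav and 0.45 for Itgb1. It was -2.71 for Itgb3, -2.09 for Itga2b, -1.09 for Itgae, -0.76 for Itgb3bp and -0.30 for Itga3.

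Among the other collagens it was 1.45 for Col6a5 and 1.35 for Col8a2, and -3.36 for Col26a1, -1.42 for Col17a1, -1.29 for Col6a2 and -1.09 for Col9a2.

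Relative to the chromosome medians, the differences of members on chromosome 1 were -3.96 for Lamb3, 1.09 for Lamc1, -0.48 for Fn1 and -0.60 for Col5a2. Those of members on chromosome 11 were -2.39 for Itgb3, -1.77 for Itga2b, -0.77 for Itgae, 1.19 for Itgb4, -0.89 for Col1a1 and 0.02 for Itga3. Of the 39 members called in all, some lie outside the rule, among them Lamb2 at 0.39 (adjusted p = 0.011), Itga8 at 1.62 (adjusted p = 0.036) and Col6a6 at -1.58 (adjusted p = 0.033).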

How the results depend on the processing

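With DESeq2 on the recovered reads, 23 members were called in the knockdown (35 with limma-trend), among them 7 integrin genes (12) and 2 other collagens (8), and the difference of effects was called for 4 other collagens (8). Leaving out 1 library at a time, the knockdown had between 24 and 34 members called, the overexpression 23 to 26 and the difference 32 to 37. Integrin genes ranged from 5 to 14 in the knockdown, with 5 without KD control replicate 2, and other collagens from 5 to 6, with 5 without KD Zscan4 replicate 1, KD control replicate 1 or KD control replicate 2. For the difference, other collagens ranged from 5 to 7, with 5 without OE control replicate 2. In the knockdown, basement membrane genes ranged from 11 to 12 and fibrillar matrix genes from 3 to 4, and in the overexpression from 9 to 11 and from 4 to 7. A fit without a library leaves 1 group with a lone sample, which is assumed to vary like the other groups.

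Centring on the chromosome turned 3 values round: Itga3 in the overexpression to 0.0283, and the differences of Itga3 to 0.0158 and of Sparc to 0.27. Among the differences, those of Lama5 and Col5a2 were not called under that centring, and that of Col5a2 also failed with a pseudocount of 0.5, TMM scaling, DESeq2, voom, the replicate block (adjusted p = 0.075) and without replicate 1 of any of the 4 groups. The differences of Col27a1, Col17a1 and Col6a2 failed with DESeq2. Without single libraries, that of Col27a1 failed for 4 of the 8 (adjusted p from 0.057 to 0.13), that of Lama5 for 4, that of Col17a1 for 3 and those of Col6a2 and Itga3 for 2 each. The cause was not tested. Over all named genes and alternatives, 103 values lost their call and 11 gained one, leaving out 1 for which DESeq2 gave no adjusted p.

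Same-numbered replicates were not known to be paired (correlation of deviations, with 2 pairs each, -0.06 for the knockdown and -0.04 for the overexpression). With the replicate block, the knockdown had 35 members called, the overexpression 25 and the difference 38; of the named members, Itgb3bp lost its call in the overexpression (adjusted p = 0.051), and Col5a2 gained one there (adjusted p = 0.048) and lost that of its difference.

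Depth limits the members with few reads: a mean under 20 was found for 11 of 67 in the knockdown table and 14 of 68 in the overexpression table.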
